A study of Mus musculus with 6 samples.

Results

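Mouse hepatocytes that carried a Sox4 vector were compared with hepatocytes that carried an empty vector (EV), and 40 genes of the unfolded protein response and the integrated stress response were followed across 6 libraries. The 40 genes were chosen by name from known genes of these responses, by a rule that uses no measured value. Earlier results of these data were known when they were chosen, so the choice was not blind to the data. All were found by symbol among 53599 symbols in the count table. They were kept in 2 branches: 17 genes around the transcription factor ATF4 (kinases that raise it, ATF4 itself and genes downstream), and 23 around XBP1 and ATF6 (sensors, factors and the folding and degradation genes they raise). The filter on low counts retained 12691 genes, among them 16 of the ATF4 branch and 23 of the XBP1/ATF6 branch. The gene left out was Nupr1, a stress-induced coregulator, with 1, 1 and 3 counts in the EV libraries and 2, 4 and 0 in the Sox4 libraries.

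The Sox4 group received AAV8-TBG-HA-Sox4-P2A-Cre, an adeno-associated virus that carries HA-tagged mouse Sox4 and Cre recombinase, and the EV group received AAV8-TBG-Cre, so both groups expressed Cre. The TBG promoter limits expression mainly to hepatocytes. Hepatocytes were harvested 4 days after injection by liberase digestion and Percoll enrichment. The labels give the genotype as WT for EV and Sox4 for the other group. The mice, per the paper's methods and reporting summary, were male, a few weeks old and homozygous for Rosa26-LSL-Cas9-EGFP on a C57BL/6J background. Cre therefore also switched on Cas9 and EGFP in both groups. The vector dose for these libraries is stated for the Sox4 vector only. There were 3 libraries per group. The study counts its replicates for these data as animals, and the labels do not tie a library to an animal, so p-values measure the spread between these libraries.

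The unfolded protein response senses misfolded protein in the endoplasmic reticulum (ER), where hepatocytes fold the many proteins they secrete. The sensor IRE1 (Ern1) splices the Xbp1 mRNA, and the sensor ATF6 is cut to release a transcription factor; both products raise genes for chaperones, disulfide isomerases and ER-associated degradation (ERAD). The sensor PERK (Eif2ak3) and the amino acid sensor GCN2 (Eif2ak4) phosphorylate eIF2, which lowers translation in general but favours translation of ATF4, and ATF4 raises genes for amino acid synthesis, transfer RNA charging and stress signalling. ATF4 and spliced XBP1 are controlled largely after transcription, and gene counts report neither splicing nor protein.

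Sox4 itself was at 0.154, 0 and 0.218 CPM (counts scaled to a common library size) in the EV libraries, where it had 2, 0 and 3 counts, and at 1088, 771 and 599 CPM in the Sox4 libraries, in accord with the labels. Total counts per library lay between 15090629 and 16964860. CPM rest on library sizes after TMM scaling, a trimmed mean of gene ratios that allows for changes in RNA composition. The Sox4 to EV ratio was 1.48 for the scaled sizes and 1.07 for total counts. Without that step the middle gene of all those tested moved from a log2 fold change of 0.04 to 0.51, and a shift of 0.44 to 0.47 was found for the genes listed here apart from Slc7a11 (0.21), so directions are given under both scalings where they part. Hepatocyte markers (Alb, Apoa1, Apob, Ttr, Serpina1a, Cps1, Hnf4a and Asgr1) were all present and together made up 118397 to 140919 CPM in the EV libraries and 84910 to 98900 CPM in the Sox4 libraries. With TMM 5 of the 8 were lower, against 26.0% of all tested genes, and with library size alone 2 were, against 12.8%, when 3 lay above 0. The 8 Kupffer cell markers summed to between 9.86 and 23.7 CPM in EV and between 23.7 and 59.6 CPM in Sox4, and 3 of the 7 tested were higher, against 29.0% of all tested genes, and 6 of the 7 were with library size alone, against 51.0%.

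The 250 bases before the annotated start of a gene were read from RefSeq (GRCm38.p6) for the 36 members that had an entry; Cars, Atf6, Hyou1 and Manf had none. The known ER stress response element (ERSE), CCAAT and CCACG separated by 9 bases, was searched on both strands from 250 bases before to 50 bases after the start. It stood in 39 of 32851 promoters of the table (0.119%) and in 18 of 12380 promoters of tested genes (0.145%). Among the members it stood in 9 of the 20 XBP1/ATF6 genes with an entry and in 0 of the 16 ATF4 genes with an entry. The matches are shown because they are the sequence that these chaperone and ERAD genes share, written 5′ to 3′ on the strand of the motif with its fixed bases in capitals:
Hspa5: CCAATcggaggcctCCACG
Calr: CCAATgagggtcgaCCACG
Derl3: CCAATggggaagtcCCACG
Hsp90b1: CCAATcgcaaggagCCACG
Hsp90b1: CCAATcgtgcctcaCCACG
Canx: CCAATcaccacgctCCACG
Pdia6: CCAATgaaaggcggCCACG
Dnajc3: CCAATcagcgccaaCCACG
Creld2: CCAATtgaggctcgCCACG
Syvn1: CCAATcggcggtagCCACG

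Hsp90b1 held 2 matches on opposite strands. The related ERSE-II, ATTGG and CCACG separated by 1 base, stood in 2 further genes of the branch, Herpud1 upstream and Dnajb11 8 bases after its start:
Herpud1: ATTGGgCCACG
Dnajb11: ATTGGcCCACG

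The whole upstream window is given for genes that the results below turn on, on the strand of the gene, with every motif match in capitals. Hspa5 (chr2:34771840-34772089, plus strand) encodes the chaperone BiP, Hsp90b1 (chr10:86705445-86705694, minus strand) encodes GRP94, and Herpud1 (chr8:94386179-94386428, plus strand) and Derl3 (chr10:75893148-75893397, plus strand) encode ERAD components. Chac1 (chr2:119350992-119351241, plus strand), an ATF4 target that degrades glutathione, is shown for contrast, with the C/EBP-ATF response element (CARE) in capitals.
Hspa5: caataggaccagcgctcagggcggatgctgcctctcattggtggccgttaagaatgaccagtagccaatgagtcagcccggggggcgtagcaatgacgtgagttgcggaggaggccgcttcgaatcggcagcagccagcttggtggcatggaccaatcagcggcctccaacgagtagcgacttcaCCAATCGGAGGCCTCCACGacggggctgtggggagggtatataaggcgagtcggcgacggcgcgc
Hsp90b1: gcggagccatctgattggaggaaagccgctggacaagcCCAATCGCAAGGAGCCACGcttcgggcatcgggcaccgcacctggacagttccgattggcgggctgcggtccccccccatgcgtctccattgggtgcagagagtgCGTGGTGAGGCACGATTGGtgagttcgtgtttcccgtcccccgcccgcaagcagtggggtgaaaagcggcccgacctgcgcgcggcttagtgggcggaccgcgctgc
Herpud1: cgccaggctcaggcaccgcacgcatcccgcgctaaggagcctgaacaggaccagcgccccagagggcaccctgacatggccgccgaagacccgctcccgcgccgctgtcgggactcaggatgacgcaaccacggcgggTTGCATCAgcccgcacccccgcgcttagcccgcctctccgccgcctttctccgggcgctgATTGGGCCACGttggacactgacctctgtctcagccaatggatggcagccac
Derl3: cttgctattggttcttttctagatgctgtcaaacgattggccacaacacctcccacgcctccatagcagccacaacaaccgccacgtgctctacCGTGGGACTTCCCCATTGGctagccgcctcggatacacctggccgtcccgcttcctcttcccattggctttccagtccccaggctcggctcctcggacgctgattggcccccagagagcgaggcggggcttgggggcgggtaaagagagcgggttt
Chac1: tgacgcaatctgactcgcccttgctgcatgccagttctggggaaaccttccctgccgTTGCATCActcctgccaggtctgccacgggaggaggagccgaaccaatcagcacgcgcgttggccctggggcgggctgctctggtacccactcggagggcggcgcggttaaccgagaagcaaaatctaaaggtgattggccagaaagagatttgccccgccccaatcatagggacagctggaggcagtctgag

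CARE was searched as TGATGNAA, on both strands, and stood in 3.97% of all promoters and 2.29% of promoters of tested genes. It was present in 5 of the 16 ATF4 genes with an entry (Asns, Atf3, Chac1, Nupr1 and Trib3) and in 1 of the 20 XBP1/ATF6 genes, Herpud1. This form was adopted after the longer form TGATGNAAT had been tried, which is in 0.965% of all promoters and matched only Nupr1 among the members, so the count of 5 depends on the form chosen. The XBP1-binding UPRE, TGACGTGG, stood in 0.676% of all promoters and matched no member. ERSE-II stood in 12 of the 32851 promoters. A match is a description of the letters in this window and not a measurement of binding.

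**Figure D1:**
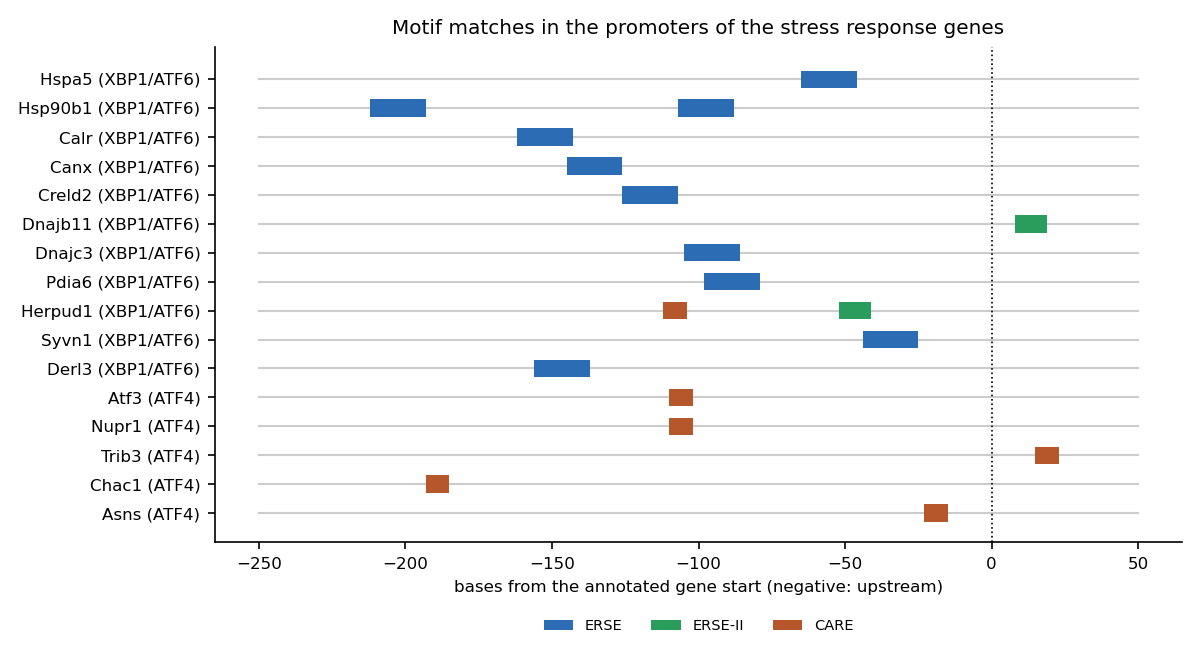
Positions of exact motif matches from 250 bases before to 50 bases after the annotated start of each member with a match (x axis, bases from the start); each bar is 1 match and colours give ERSE, ERSE-II and CARE in its 8-base form. ERSE matches lie in 9 genes of the XBP1/ATF6 branch, all upstream of the start, and CARE matches in 5 genes of the ATF4 branch and in Herpud1.

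In the XBP1/ATF6 branch, 20 of 23 genes were lower in Sox4 and 0 were higher, against 26.0% of all tested genes lower and 29.0% higher. The median log2 fold change of the 23 genes was -0.97, with a range from -2.76 to -0.11. The 3 genes that did not pass were Creld2, Pdia3 and Pdia4. All 23 lay below 0 under TMM scaling, and all but Pdia3 and Pdia4 did with library size alone; 10 of the 20 were lower by 2-fold or more. In 21 of the 23 every Sox4 library was below every EV library in TMM-scaled CPM, against 29.9% of all tested genes. Overlap of the groups, here and below, was read from TMM-scaled CPM only and can differ with library size alone. Summed over the branch, the level was 7690, 8301 and 8828 CPM in the EV libraries and 5648, 4990.2 and 3690.4 CPM in the Sox4 libraries, with means of 8273 ± 569.6 (SD, n = 3) and 4776 ± 996 (SD, n = 3). With library size alone, 9 of the 23 genes were lower and 0 were higher, against 12.8% and 51.0% of all tested genes. The median of the branch then was -0.50, which lay 1.01 below the median of all genes, as it did with TMM. The change of scaling moves the branch and the middle gene by nearly the same amount. That distance could therefore hardly differ, and it is no second check.

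**Figure D2:**
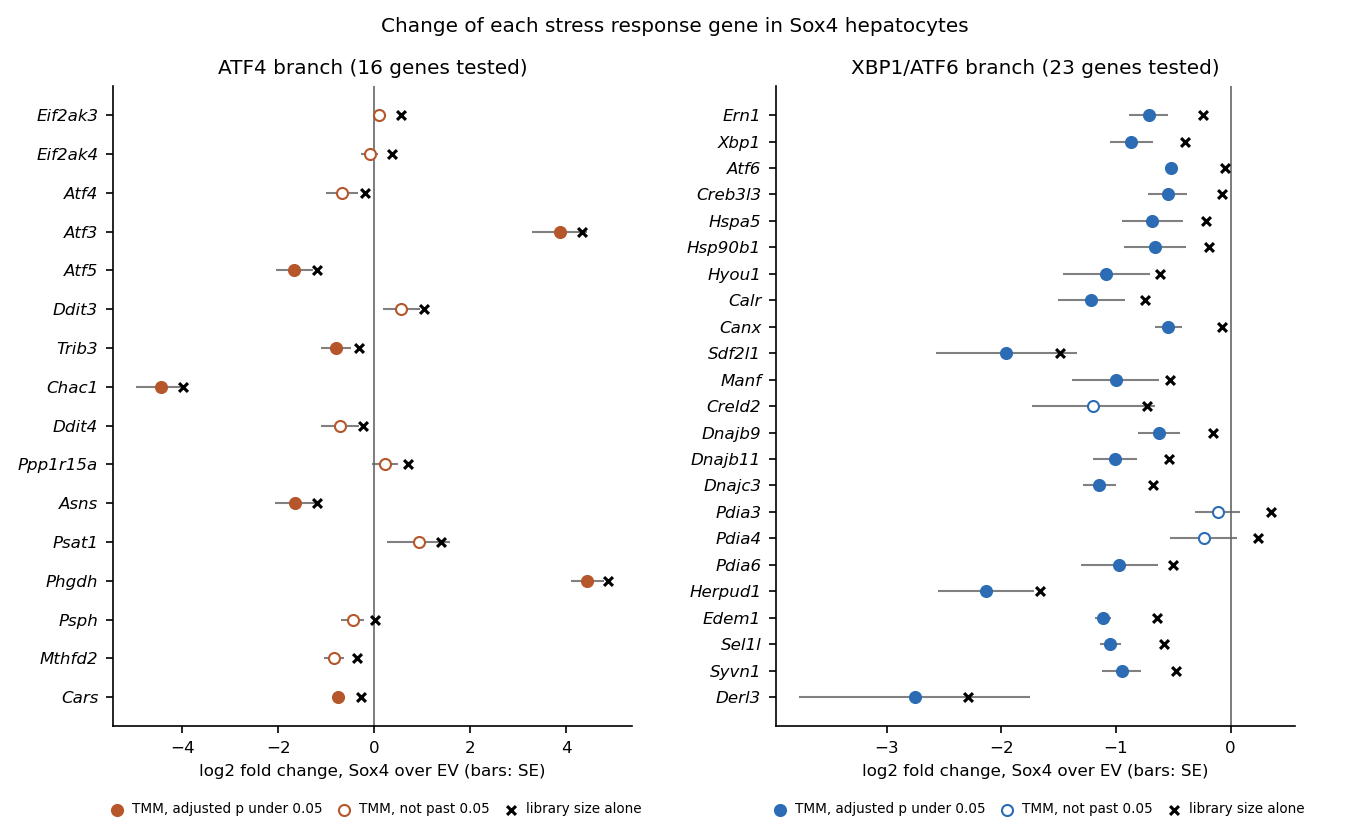
Log2 fold change of Sox4 over EV (x axis) for the 16 ATF4 branch genes and 23 XBP1/ATF6 branch genes tested; circles are the TMM fit with SE bars (filled, adjusted p under 0.05), and crosses are the fit on library size alone. All XBP1/ATF6 circles lie below 0, whereas ATF4 branch circles run from -4.46 (Chac1) to 4.44 (Phgdh).

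All 4 sensors and transcription factors of this branch were lower with TMM. Xbp1, which encodes the factor that IRE1 activates by splicing, was at 217, 221 and 299 CPM in EV and 125, 156 and 123 CPM in Sox4. The groups did not overlap, and the change was modest (log2 fold change -0.87, SE 0.19, adjusted p = 0.00144). Ern1, the IRE1 sensor itself, was at 86.4, 93.5 and 121 CPM in EV and 67.7, 61.4 and 54.4 CPM in Sox4 (log2 fold change -0.71, SE 0.17, adjusted p = 0.00250). Atf6, the membrane-bound sensor, fell from 112, 116 and 120.1 CPM to 83.9, 80.7 and 78.1 CPM, with little spread in either group (log2 fold change -0.52, SE 0.043, adjusted p = 0.00169). Creb3l3, a liver-enriched membrane-bound factor of the same design, was at 342, 357 and 338 CPM in EV and 186, 246 and 277 CPM in Sox4 (log2 fold change -0.55, SE 0.17, adjusted p = 0.0137). None of the 4 passed with library size alone, where their log2 fold changes were -0.40, -0.24, -0.049 and -0.078.

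Of 8 chaperone and lumenal folding genes, 7 were lower. Hspa5, the main ER chaperone and a standard readout of ER stress, was at 1296, 1499 and 1536 CPM in the EV libraries and 1169, 895 and 636 CPM in the Sox4 libraries. In TMM-scaled CPM every Sox4 library was below every EV library, and Sox4 replicate 1 lay close to the lowest EV library (log2 fold change -0.68, SE 0.27, adjusted p = 0.0209). Before scaling, Sox4 replicate 1 had the most Hspa5 counts of all libraries, 23320 against 16820, 19741 and 21145 in EV. Total counts were 16964860 there and 15090629, 15690475 and 16249382 in EV. The call was lost without EV replicate 2 (adjusted p = 0.0594) and without Sox4 replicate 2 (adjusted p = 0.0617). Hsp90b1, its HSP90-family partner, was at 772, 826 and 1009 CPM and 669, 598 and 386 CPM (log2 fold change -0.66, SE 0.27, adjusted p = 0.0232), and was not called without EV replicate 3 (adjusted p = 0.0696). Neither passed with library size alone, at -0.21 and -0.19. Calr and Canx, the lectin chaperones that hold glycoproteins until they fold, were both lower. Calr was at 1125, 1038 and 1098 CPM in EV and 629, 462 and 313 CPM in Sox4 (log2 fold change -1.22, SE 0.29, adjusted p = 0.00147), and Canx, the membrane-anchored lectin, changed less (log2 fold change -0.54, adjusted p = 0.00801).

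Sdf2l1, a small partner of BiP, changed most among the chaperone genes. It was at 50.5, 46.9 and 47.7 CPM in the EV libraries, a narrow range, and 21.3, 11.3 and 4.81 CPM in the Sox4 libraries, which were spread widely (log2 fold change -1.96, SE 0.61, adjusted p = 0.0147). The call was lost without Sox4 replicate 2 (adjusted p = 0.0508) and with no filter on low counts (adjusted p = 0.0894). Hyou1, a nucleotide exchange factor for BiP, was at 363, 412 and 400.4 CPM in EV and 266, 181 and 108 CPM in Sox4 (log2 fold change -1.08, SE 0.38, adjusted p = 0.0105). Manf, a secreted ER stress protein, was at 117, 131 and 129 and 93.03, 57.4 and 37.96 CPM (log2 fold change -1.003, SE 0.38, adjusted p = 0.0198), and was not called without EV replicate 3 or without Sox4 replicate 2 (adjusted p = 0.0583 and 0.0621). Creld2, an ER folding factor, was at 53.9, 60.8 and 62.8 CPM in EV and 43.6, 21.8 and 12.01 CPM in Sox4. Its groups did not overlap, but the spread in Sox4 was wide and it did not pass (log2 fold change -1.20, SE 0.54, adjusted p = 0.0597). Creld2 did pass without Sox4 replicate 1 (adjusted p = 0.000581), without Sox4 replicate 3 (adjusted p = 0.0274) and with DESeq2 (adjusted p = 0.00125).

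The 3 J-domain genes, whose products stimulate the ATPase of BiP, were all lower. Dnajc3, which also restrains eIF2 kinases, was at 348, 379 and 447 CPM in EV and 176, 198 and 157 CPM in Sox4 (log2 fold change -1.15, SE 0.14, adjusted p = 0.000141). Dnajb11 was at 127, 121 and 129 CPM and 79.7, 55.2 and 52.5 CPM (log2 fold change -1.01, SE 0.19, adjusted p = 0.00052), and Dnajb9, a repressor of IRE1, had a smaller change (log2 fold change -0.63, adjusted p = 0.00629). Among the protein disulfide isomerases, which form and shuffle disulfide bonds, 1 of 3 was lower. Pdia6 was at 399.8, 404 and 419 CPM in EV and 285, 211 and 129 CPM in Sox4 (log2 fold change -0.97, SE 0.34, adjusted p = 0.00913). Pdia3 was at 579, 608 and 704 CPM in EV and 656, 642 and 450.2 CPM in Sox4, and Pdia4 at 294, 297 and 301 and 332, 259.6 and 167 CPM. For both the groups overlapped, with log2 fold changes of -0.11 (adjusted p = 0.602) and -0.23 (adjusted p = 0.386), and 0.36 and 0.24 with library size alone. Pdia4 passed as lower without Sox4 replicate 1 (adjusted p = 0.0402).

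All 5 ERAD genes of this branch, which extract misfolded proteins for destruction by the proteasome, were lower. With TMM, ERAD genes outside the branch changed less. Of 12 tested, 5 were lower, 0 were higher and 7 did not pass, with a median log2 fold change of -0.17. Of all tested genes, 26.0% were lower and 29.0% higher. With library size alone, Derl2 (-0.64) was lower, and Edem3 (0.48), Vcp (0.49), Selenok (0.47) and Faf2 (0.66) were higher. Of all tested genes, 12.8% were then lower and 51.0% higher. Herpud1, an organiser of the retrotranslocation complex, was at 235, 468 and 482 CPM in EV and 67.01, 121 and 82.7 CPM in Sox4, so that even the lowest EV library was above all Sox4 libraries (log2 fold change -2.13, SE 0.42, adjusted p = 0.000854). Derl3, a channel component, was scarce, at 2.16, 4.02 and 6.90 CPM in EV and 1.25, 0.613 and 0.0507 CPM in Sox4, where Sox4 replicate 3 had 1 count (log2 fold change -2.76, SE 1.005, adjusted p = 0.0120). Its call was lost with the replicate number as a block (adjusted p = 0.0822). Edem1, which marks glycoproteins for degradation, and Sel1l, the scaffold of the ligase Syvn1, had tight replicates. Edem1 was at 294, 279.7 and 263 CPM in EV and 137, 127 and 123 CPM in Sox4 (log2 fold change -1.11, SE 0.067, adjusted p = 4.14e-05). Sel1l was at 229.7, 217 and 186 CPM and 103, 101 and 102 CPM (log2 fold change -1.05, SE 0.090, adjusted p = 6.64e-05), and Syvn1 had a log2 fold change of -0.95 (adjusted p = 0.000417). Calr, Sdf2l1, Dnajc3, Dnajb11, Herpud1, Edem1, Sel1l, Syvn1 and Derl3 were the 9 genes that were also lower with library size alone.

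**Figure D3:**
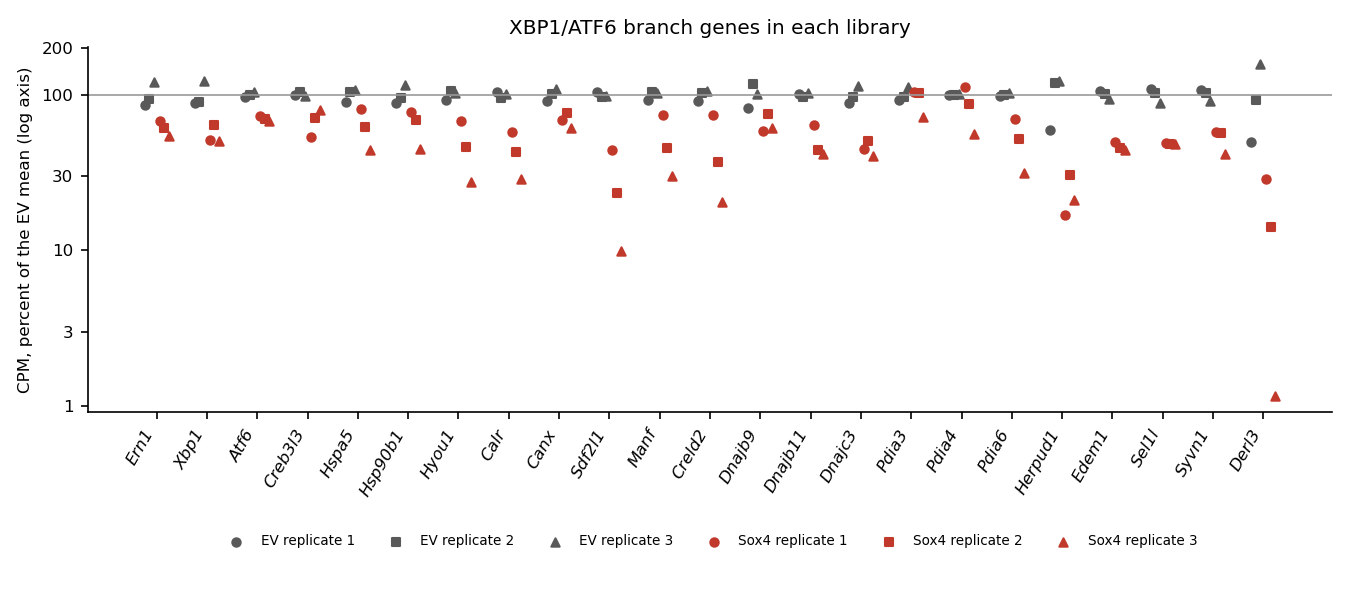
CPM of each of the 23 XBP1/ATF6 branch genes in each library as a percent of that gene's EV mean (y axis, log scale; grey EV, red Sox4; circle, square and triangle are replicates 1, 2 and 3). In these TMM-scaled values the Sox4 points lie below all EV points in 21 genes, and the Sox4 replicate 3 triangle is the lowest red point in 19.

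The Sox4 libraries differed among themselves across this branch more than the EV libraries did. The median SD of log2 CPM over the 23 genes was 0.117 in EV and 0.328 in Sox4, beside 0.181 and 0.211 over all tested genes. Sox4 replicate 3 was the lowest of the 3 Sox4 libraries in 19 of the 23 genes, and in 34.9% of all tested genes and 38.4% of all genes lower in Sox4. The same library had the lowest level of Sox4, and Sox4 replicate 1, the highest in Sox4, was the highest of the 3 in 17 of the 23 genes, and in 40.1% of all tested genes and 52.4% of all genes lower in Sox4. The Kupffer cell marker sum also ran in order, at 23.7, 49.5 and 59.6 CPM in Sox4 replicates 1, 2 and 3. With 3 libraries such an order is a description, and the part of either level in it was not tested. Without Sox4 replicate 3, 21 of the 23 genes were lower and the median log2 fold change was -0.80.

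Across genes, levels per kilobase of exon in EV were highest for the lumenal chaperones. Calr was at 378 ± 15.6 CPM per kilobase (SD, n = 3), Hspa5 at 341 ± 30.5, Hsp90b1 at 216 ± 30.8 and Pdia3 at 201 ± 20.98. In Sox4, Hspa5 was at 213 ± 62.96 CPM per kilobase, Pdia3 at 186 ± 36.7, Calr at 163 ± 54.9 and Hsp90b1 at 137 ± 36.6, with SDs that overlap between neighbours in that order. The lowest gene of the branch was Derl3, at 2.19 ± 1.20 CPM per kilobase in EV. Exon lengths were taken from GENCODE M21 gene models, an annotation of an earlier build than the one used for counting. There, genes on the opposite strand cover 10.3% of the exons of Hsp90b1, 10.4% of those of Psph and 8.05% of those of Eif2ak3, and whether counting used strand was not stated.

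The ATF4 branch did not move in 1 direction. Of 16 tested genes, 5 were lower (Chac1, Atf5, Asns, Trib3 and Cars), 2 were higher (Atf3 and Phgdh) and 9 did not pass, against the same 26.0% and 29.0% of all tested genes. Every Sox4 library was above every EV library in 2 genes, against 33.1% of all tested genes, and below in 6, against 29.9%. The median log2 fold change was -0.55, with a range from -4.46 to 4.44, where the end for Phgdh is a fitted value against almost no EV counts. With library size alone the median was -0.09, 4 genes were lower and 5 were higher, against 12.8% and 51.0% of all tested genes. The 5 higher genes there were Atf3, Phgdh, Eif2ak3, Ddit3 and Ppp1r15a.

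The kinases of the branch did not pass with TMM. Eif2ak3, the PERK sensor, was at 27.05, 29.4 and 23.96 CPM in EV and 29.6, 28.7 and 27.5 CPM in Sox4 (log2 fold change 0.09, SE 0.090, adjusted p = 0.534), and was higher with library size alone (0.56, adjusted p = 0.00247). Eif2ak4, the GCN2 sensor, had a log2 fold change of -0.10 (adjusted p = 0.657), and 0.37 with library size alone. Atf4 was at 136, 94.3 and 75.5 CPM in EV and 83.5, 48.7 and 60.7 CPM in Sox4. The groups overlapped by 1 library on each side and it did not pass (log2 fold change -0.67, SE 0.33, adjusted p = 0.0538). It passed as lower without EV replicate 3 (adjusted p = 0.0173), without Sox4 replicate 1 (adjusted p = 0.0273) and with DESeq2 (adjusted p = 0.0152). Atf4 also passed as lower with no filter on low counts and with the replicate number as a block.

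Among factors downstream of ATF4, Atf3 rose and Atf5 fell. Atf3, a stress- and injury-induced repressor, was at 2.93, 10.5 and 7.33 CPM in EV and 128, 101 and 74.95 CPM in Sox4, far apart in every library (log2 fold change 3.87, SE 0.58, adjusted p = 0.000413). Atf5, an ATF4-related factor abundant in liver, was at 365, 268 and 224 CPM in EV and 91.8, 56.4 and 121 CPM in Sox4, also without overlap (log2 fold change -1.67, SE 0.38, adjusted p = 0.00154). Ddit3, which encodes the pro-apoptotic factor CHOP, was at 4.85, 6.76 and 4.72 CPM in EV and 11.4, 4.85 and 7.80 CPM in Sox4. Sox4 replicate 2 lay within the EV range, and Ddit3 did not pass (log2 fold change 0.56, SE 0.39, adjusted p = 0.154), whereas it was higher without Sox4 replicate 2 (adjusted p = 0.0329) and with library size alone (1.03, adjusted p = 0.0157). Ddit3 was also higher with no filter on low counts.

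Atf3 is also an immediate early gene that tissue dissociation can raise, and 5 of 10 dissociation and immediate early genes were higher in Sox4 and 0 were lower, against 29.0% and 26.0% of all tested genes. Scaled by library size alone, 7 of the 10 were higher and 0 lower, against 51.0% and 12.8%. Ier3, Fosb and Fos led them, with log2 fold changes of 6.503, 4.47 and 1.58. The summed level of the 10 genes was between 1370.0 and 2048 CPM in EV and between 1791 and 3115 CPM in Sox4, and its part in the Atf3 result was not tested.

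Of 4 feedback and stress effectors, Chac1 and Trib3 fell. Chac1 was at 4.24, 11.01 and 5.23 CPM in EV and 0.401, 0.153 and 0.355 CPM in Sox4, where it had 8, 3 and 7 counts, and the groups were far apart (log2 fold change -4.46, SE 0.50, adjusted p = 6.63e-05). Trib3, a pseudokinase that feeds back on ATF4, was at 14.6, 16.1 and 19.4 CPM and 8.32, 13.6 and 6.94 CPM (log2 fold change -0.79, SE 0.31, adjusted p = 0.0210). Leaving out EV replicate 3, or replicate 1 or 3 of Sox4, ended its call (adjusted p = 0.0669, 0.0634 and 0.0600) and so did library size alone (adjusted p = 0.273). Ddit4, an inhibitor of mTORC1, had a log2 fold change of -0.71 (adjusted p = 0.0614), and passed as lower without EV replicate 3 (adjusted p = 0.00478), without Sox4 replicate 1 (adjusted p = 0.0275) and with DESeq2 (adjusted p = 0.0233). Ddit4 also passed as lower with no filter on low counts and with the replicate number as a block. Ppp1r15a, the stress-induced subunit of the eIF2 phosphatase, was at 15.03, 21.2 and 12.7 CPM in EV and 22.4, 19.5 and 15.3 CPM in Sox4. Its groups overlapped with TMM (log2 fold change 0.23, SE 0.27, adjusted p = 0.391), and it was higher with library size alone (0.70, adjusted p = 0.0157).

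The amino acid and one-carbon enzymes split. Asns, asparagine synthetase and a classical ATF4 target, was at 14.02, 5.999 and 8.35 CPM in EV and 3.66, 3.27 and 2.08 CPM in Sox4, with no overlap (log2 fold change -1.65, SE 0.43, adjusted p = 0.00262). Cars, the cysteinyl-tRNA synthetase, was at 48.2, 53.00 and 55.8 CPM in EV and 32.5, 31.6 and 29.5 CPM in Sox4, with little spread in either group (log2 fold change -0.75, SE 0.074, adjusted p = 0.000307). Phgdh, the first enzyme of serine synthesis, was nearly absent in EV and present in Sox4, with 0, 1 and 2 counts in the EV libraries and 41, 31 and 34 counts in the Sox4 libraries. Its level was 2.06, 1.58 and 1.72 CPM in Sox4 (adjusted p = 0.000274), and the ratio of pooled counts was 23.8 with a 95% exact binomial interval of 7.93 to 117 that covers counting error only. Of the 50-base stretches of Phgdh transcripts, 47.8% also occur in other annotated genes, chiefly the pseudogene Gm7901, so how reads were divided among them is uncertain. Psat1, the next enzyme of the serine pathway, was at 1.08, 0.228 and 0.654 CPM in EV and 0.702, 1.99 and 1.06 CPM in Sox4, with overlap (log2 fold change 0.93, adjusted p = 0.207). Psph, the last enzyme of that pathway, had a log2 fold change of -0.44 (adjusted p = 0.148), and 0.024 with library size alone. Mthfd2, a mitochondrial folate enzyme, was lower in every Sox4 library, at 1.62, 1.97 and 1.74 CPM in EV and 1.30, 0.868 and 0.811 CPM in Sox4, but did not pass (log2 fold change -0.83, adjusted p = 0.0754).

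**Figure D4:**
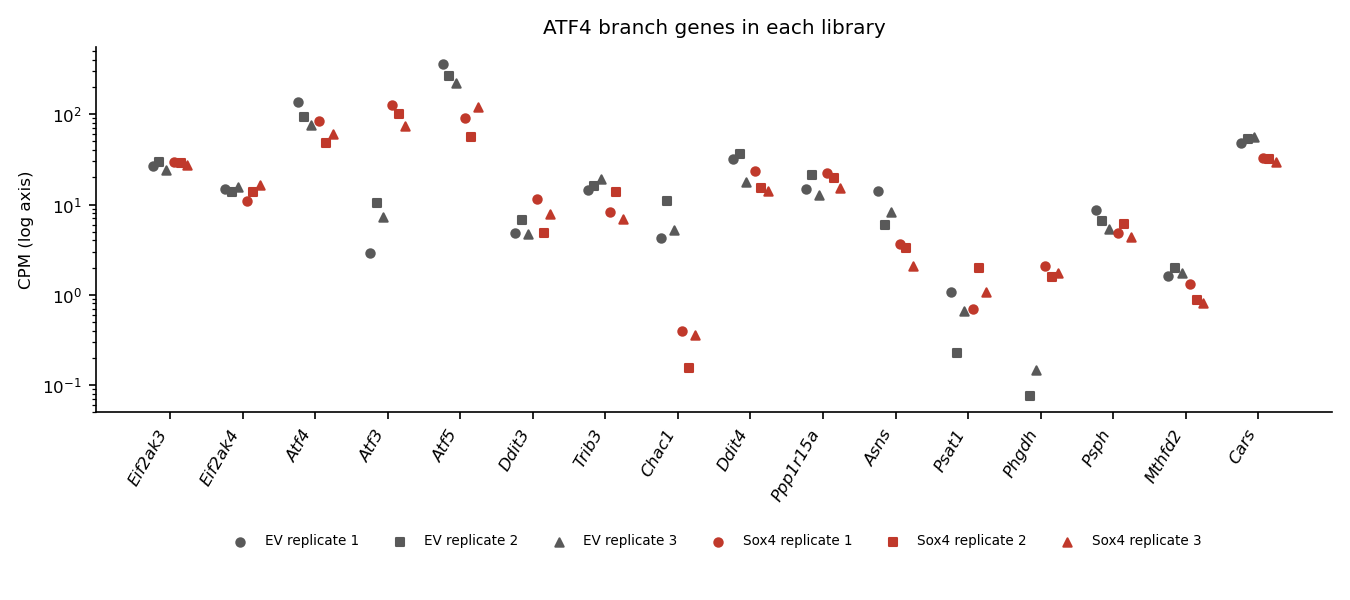
CPM of each tested ATF4 branch gene in each library (y axis, log scale; grey EV, red Sox4; circle, square and triangle are replicates 1, 2 and 3); EV replicate 1 of Phgdh, with 0 counts, is not drawn. Atf3 and Phgdh have all red points above the grey ones, and Atf5, Chac1, Asns, Trib3, Cars and Mthfd2 have all red points below.

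Further genes of the same pathways were counted from lists drawn up in the same way. Of 58 other ER folding genes, 57 were tested, 32 were lower and 5 were higher, against 26.0% and 29.0% of all tested genes, with a median log2 fold change of -0.43. Scaled by library size alone, 12 were lower and 18 were higher, against 12.8% and 51.0% of all tested genes. With TMM, 10 of 13 oxidoreductase and folding enzyme genes were lower, with 4 of 6 N-glycosylation and 3 of 5 transport genes. The count was 8 of 15 for translocon and signal peptidase genes, 5 of 12 for ERAD genes and 2 of 6 for sensors and proteases. Another 2 of the 6 sensors and proteases were higher. Lowest in the list were Ero1b (-1.83), the oxidase that recharges disulfide isomerases, Fkbp11 (-1.70) and Fkbp2 (-1.47), both prolyl isomerases. Fkbp2 did not pass with library size alone (-1.002). The genes most raised were Mbtps2 (1.09), the site-2 protease that releases ATF6, Creb3l2 (0.84), a membrane-bound factor, and Spcs1 (0.57), a signal peptidase subunit. Of 42 other integrated stress response genes, 38 were tested, with a median of -0.07. There 14 were lower (36.8%) and 10 were higher (26.3%), against 26.0% and 29.0% of all tested genes. On library size alone 5 were lower and 20 were higher, shares close to the 12.8% and 51.0% of all tested genes. The lower genes were led by Shmt2 (-1.43), a mitochondrial serine enzyme, Tars (-1.43), a tRNA synthetase, and Ppp1r15b (-1.17), the constitutive eIF2 phosphatase subunit.

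On the higher side of that list, Slc7a11, the cystine transporter, had 0 counts in all EV libraries and 24, 15 and 15 counts in the Sox4 libraries, at least 4.03-fold higher against a floor of 3 counts per EV library. Fgf21, a secreted liver hormone, was at 0.385, 0.152 and 0.436 CPM in EV and 4.91, 14.00 and 30.6 CPM in Sox4 (log2 fold change 5.63, SE 0.82, adjusted p = 0.00222). Sox4 replicate 3, the lowest library in most XBP1/ATF6 genes, had the highest Fgf21. Aldh18a1, which starts proline synthesis, was at 1.08, 0.683 and 0.654 CPM in EV and 8.42, 8.12 and 6.64 CPM in Sox4 (log2 fold change 3.25, SE 0.23, adjusted p = 1.50e-05).

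Chaperone systems outside the ER gave other counts. All 9 mitochondrial protein quality genes were lower with TMM, against 26.0% of all tested genes, among them the protease partner Clpx (-1.48) and the chaperones Dnaja3 (-0.99) and Trap1 (-0.98), whereas with library size alone 4 of the 9 were lower, against 12.8%, these 3 included, and Clpp lay just above 0. Of 9 tested cytosolic heat shock genes, Hsp90aa1 (0.99), Dnaja1 (0.63) and Hsph1 (0.39) were higher, and Hspa1b (-2.33) and Hspb1 (-1.24) were lower, against 29.0% of all tested genes higher and 26.0% lower. With library size alone 6 were higher and 1, Hspa1b, was lower, against 51.0% and 12.8%.

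**Figure D5:**
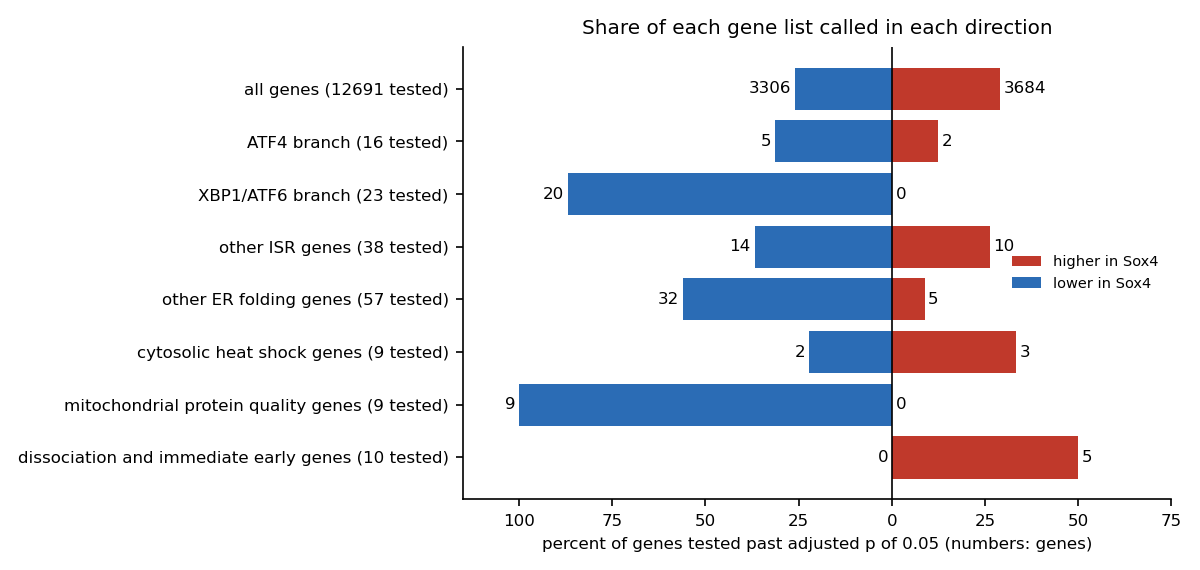
Percent of tested genes in each list that passed an adjusted p of 0.05 with TMM (x axis; red to the right, higher in Sox4; blue to the left, lower), with the number of genes at each bar and all tested genes in the top row. The XBP1/ATF6 branch (20 lower, 0 higher) and the ATF4 branch (5 lower, 2 higher) stand beside 3306 lower and 3684 higher among all genes.

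Beyond the members, 16 tested genes held an ERSE or ERSE-II in their promoter, and 6 of them were lower and 2 higher, or 37.5% lower against 26.0% of all tested genes, with a median log2 fold change of -0.37. Of the 11 members with an ERSE or ERSE-II, 10 were lower and Creld2 did not pass. Of the other 12 genes of the XBP1/ATF6 branch, 10 were lower as well, namely 7 of the 9 whose promoter held no match and the 3 without an entry. Cells other than hepatocytes can also hold abundant ER chaperones, plasma cells above all. The 7 plasma and B cell markers summed to 2.77-7.52 CPM (EV) and 4.81-10.2 CPM (Sox4), with neither of the 2 tested called. The 7 stellate cell markers summed to 8.32-43.2 CPM (EV) and 72.8-134 CPM (Sox4), most of it Reln. Of 2 tested, 1 was higher, against 29.0% of all tested genes. The 6 cholangiocyte markers summed to 10.02-21.9 CPM (EV) and 48.5-58.99 CPM (Sox4), most of it Spp1 in Sox4. Of 3 tested, 2 were higher, against the same 29.0%. The paper reports that lineage-traced hepatocytes given Sox4 themselves induce biliary genes, so these markers do not count cholangiocytes alone. The 7 endothelial markers summed to 14.7-22.02 CPM (EV) and 11.9-28.2 CPM (Sox4). All 7 were tested, and 2 were higher and 1 was lower, against 29.0% and 26.0% of all tested genes. With library size alone 2 were higher and 0 lower, against 51.0% and 12.8%. The 6 T cell and neutrophil markers summed to under 1 CPM in every library, with Ly6g at 0 in all. The 5 erythroid markers summed to 93.03-126 CPM (EV) and 4.97-15.5 CPM (Sox4), and that fall was Alas2 alone (log2 fold change -3.45, SE 0.56, adjusted p = 0.000687). The globin genes had few counts and none was lower in Sox4. Hba-a1 had 2, 2 and 2 counts in EV and 4, 11 and 8 in Sox4, Hbb-bs had 3, 0 and 5 and 13, 22 and 9, and neither passed the filter. The part of these cell types in the results was not tested. Fewer hepatocytes and less RNA of the members per hepatocyte cannot be told apart in these bulk libraries. The paper reports repression of hepatocyte genes after Sox4 expression, from qRT-PCR and RNA-seq of harvested cells. Those are bulk measurements as well.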

How the data were processed

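RNA-seq counts were analysed for hepatocytes of 2 groups, EV and Sox4, with 3 libraries each, and the labels gave the group of each. Per the labels, reads were aligned to GRCm39 with STAR 2.7.10b and counted with featureCounts 2.0.1, and the authors deposited raw counts for each gene symbol. The annotation release, strand setting and treatment of multiply mapped reads are not given in the sources used here, so genes that overlap or share sequence are uncertain. A second deposited table holds a signal, in which the authors scaled each count by a size factor of its library, and it entered only an alternative.

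Testing used edgeR 4.0.16 (R 4.3.3): filterByExpr (minimum count 10, minimum total 15), TMM scaling, and a robust quasi-likelihood F test. Benjamini-Hochberg adjustment covered all genes tested in the same fit (threshold 0.05), which were 12691 with this filter and all libraries, 12949 to 13255 without 1 library, 10221 under the stricter filter and 24036 unfiltered. An adjusted p is edgeR's unless another tool is named. The SE of a log2 fold change was taken between the group means of log2 CPM (prior count 2). The floor was 3 counts, or 0.150 to 0.231 CPM by library, and covers counting error only. Total counts were 15090629 to 16964860. Pairs of libraries within each group differed beyond counting noise (chi-square per degree of freedom 18.0 to 71.3).

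Alternatives were median-of-ratios, upper-quartile and library-size scaling, other filters (none, or a mean count of at least 50), DESeq2 1.42.0, limma 3.58.1 (voom, and on log2 of the deposited signal plus 1), the replicate number as a block, and leaving out each library. The members and lists were chosen with earlier results of these data known. All 40 members are named; from each other pathway list, up to 3 genes higher and up to 3 lower with the largest absolute log2 fold change are named. No test was run on a list as a whole. Promoter sequences are from RefSeq (GRCm38.p6) and gene models from GENCODE M21, both of an earlier build than the counts, so positions are given for promoters only.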

Additional observations from a re-analysis of the deposited data

How the results depend on the processing

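Of 580 values of single members under an alternative, 529 had the same direction and call, 23 were no longer called, 22 were newly called and 6 turned direction. The scaling mattered most. With library size alone, 12 members lost the threshold, and Eif2ak4 (0.37), Psph (0.024), Pdia3 (0.36) and Pdia4 (0.24) changed direction, none of them past the threshold in either fit. Direction also changed for Eif2ak4 without Sox4 replicate 1 and for Pdia3 without Sox4 replicate 3; over the libraries left out, Eif2ak4 ran from -0.25 to 0.039 and Pdia3 from -0.21 to 0.046. With library size alone the XBP1/ATF6 branch had 9 lower genes and a median of -0.50, the ATF4 branch 5 higher genes and a median of -0.0872, the other integrated stress response genes 20 higher and 5 lower, and the other ER folding genes 18 higher and 12 lower, against 51.0% higher and 12.8% lower of all genes; 79.9% of the genes changed were then higher, against 52.7% with TMM. A mean count of at least 50, which tests fewer genes and drops Phgdh and Chac1 among others, left 1 higher gene in the ATF4 branch. The other alternatives gave between 17 and 22 lower genes in the XBP1/ATF6 branch and 0 higher in each.

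Without 1 library in turn, the XBP1/ATF6 branch had 17 to 22 lower genes and a median of -1.06 to -0.80, and the ATF4 branch 4 to 6 lower genes, 2 to 3 higher genes and a median of -0.65 to -0.34. Whether the replicate numbers pair the libraries was left unsettled. The correlations of deviations from the group means were 0.27, -0.09 and 0.13, and 1 of 3 EV and 2 of 3 Sox4 libraries correlated best with their own number. With 3 libraries per group these values cannot decide it. With the replicate block, 7362 genes changed, against 6990 without it, the XBP1/ATF6 branch had 19 lower genes and the ATF4 branch 7, with Derl3 lost and Atf4 and Ddit4 gained. Low counts limit Nupr1, Phgdh, Psat1, Mthfd2 and Derl3 most, and Chac1 in the Sox4 libraries, where it had 8, 3 and 7 counts.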
